A study of Mus musculus with 8 samples.

Results

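Barcodes with fibroblast transcripts and no transcripts of the commonest endothelial, leukocyte and pericyte markers were examined in single-cell libraries that had been sorted for an endothelial reporter. A barcode was kept if it had at least 500 UMIs (unique molecular identifiers, 1 per captured transcript), at least 300 genes and at most 10% mitochondrial UMIs. It also had to hold a UMI of at least 3 of the 6 genes Pdgfra, Dcn, Col1a1, Col1a2, Lum and Dpt, and none of Cdh5, Cldn5 (both endothelial), Ptprc (leukocyte) or Rgs5 (pericyte). These fibroblast-marker barcodes numbered 561 of the 23996 barcodes that passed the first limits (27944 had been deposited). Members were thus chosen by the measured counts of these 10 genes. The fits run over all genes, rule genes included, but no result is drawn from a rule gene.

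All mice were males of genotype ROSA26-eYFP+/+ Cdh5-CreERT2+, in which tamoxifen-activated Cre, driven by the Cdh5 promoter of endothelial cells, switches on YFP for good. Tamoxifen was given in the food from week 6 of age for 2 weeks, and from week 8 each mouse was kept on one of 2 feeds, normal chow with 5.8% fat or a high fat diet with 60% fat, over the following 12 to 13 weeks. YFP-positive cells were sorted from mesentery or epididymal adipose tissue of 6 pooled mice per library, which gave 4 groups (mesentery or adipose, chow or high fat) of 2 libraries each. The sample titles mark these A and B, taken here as runs of the whole experiment. Chow animals carried the same alleles and received the same tamoxifen. A library is 1 pool, so n is 2 pools per group. How the YFP gate was drawn is unknown here, and the reporter transcript was not analysed.

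Fibroblasts make and remodel the extracellular matrix: they secrete the fibrillar collagens, the small proteoglycans that space the fibrils, and the enzymes that cross-link and cleave them. In adipose tissue and mesentery they include Pi16- and Dpp4-positive progenitors around vessels and Icam1- or Col15a1-positive cells nearer to the fat lineage. Smooth muscle cells and pericytes also make collagen but are set apart by contractile proteins such as smooth muscle actin (Acta2) and smooth muscle myosin (Myh11).

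The members were few in each library. Mesentery chow held 28 in run A and 50 in run B, and mesentery high fat held 20 and 23. Adipose chow held 241 and 46, and adipose high fat 70 and 83. Summed member UMIs were 87157 to 548878 per library, and the median member had 1947 to 8934 UMIs. Immediate early genes, which respond to tissue handling among other stimuli, summed to 13737 to 21707 CPM (a gene's share of the summed UMIs, scaled to 1e6) in members of run A and to 1502 to 2240 CPM in those of run B. The runs also differ in software version (3.0.2 and 5.0.0). Pairs of libraries shared at most 9 barcode sequences, and no member's barcode was a member in another library.

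The rule was sharp for leukocytes and less so for endothelial barcodes. Of 1189 barcodes with Ptprc and no other excluding gene, 1 carried 3 of the 6 markers, but so did 400 of the 19652 with Cdh5 or Cldn5 (0.54 to 6.22% per library). Of 975 barcodes with at least 3 markers, 561 lacked every excluding gene. Among the members 234 had exactly 3 markers, 179 had 4, 65 had 5 and 83 had all 6. Just outside the rule stood 231 barcodes with 2 markers and 150 with 3 markers and a single UMI of the excluding genes. Dcn (decorin, a collagen-binding proteoglycan) was found in 98.8 to 100% of members of a library. It was found in 1.58 to 20.7% of all barcodes with Cdh5 or Cldn5 and in 0.8 to 9.68% of leukocyte barcodes. A narrower set, called endothelial reference barcodes below, had Cdh5 or Cldn5, no Ptprc or Rgs5 and under 3 of the markers. Pdgfra, the receptor that marks most fibroblasts, was found in 17.9% of members in mesentery chow A and in 71.1% in adipose high fat B.

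Markers that the rule did not read set the members off from endothelium. The 10 further endothelial markers, Pecam1 and Kdr among them, summed to 92.3 to 209 CPM in members and to 5015 to 6749 CPM in endothelial reference barcodes. All 8 lymphocyte markers were at 0, and 10 macrophage markers summed to 3.53 to 79.4 CPM. The 12 fibroblast genes outside the rule (collagens V and VI, Fbn1, Mmp2, Clec3b and others) summed to 10570 to 36905 CPM, against 361 to 696 CPM in endothelial reference barcodes. Other lists overlapped. The 12 progenitor genes summed to 1320 to 5359 CPM in members and 1564 to 5185 CPM in endothelial reference barcodes. For the 12 preadipocyte genes the sums were 2501 to 6918 and 4142 to 54796 CPM. Mural markers were unevenly present: the 9 of them summed to 2540 to 8380 CPM in the 4 adipose libraries and to 212 to 418 CPM in the 4 mesentery libraries. Adipocyte markers reached 2439 CPM in members of adipose chow B and were at 11.5 to 95.4 CPM in the other 7 libraries.

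Members made up 1.79% of passing barcodes in mesentery chow A (95% exact binomial interval 1.19 to 2.57) and 0.974% in B (0.724 to 1.28). In mesentery high fat they made up 2.02% in A (1.24 to 3.1) and 0.769% in B (0.488 to 1.15). Adipose chow gave 12.6% in A (11.1 to 14.1) and 0.813% in B (0.596 to 1.08), and adipose high fat gave 5.29% (4.14 to 6.63) and 1.88% (1.5 to 2.33). Each group's share was higher in run A here, though not for mesentery chow with at least 4 markers (0.511% in A, 0.643% in B) or after thinning to 1000 UMIs (0.747% and 1.18%), and the 2 libraries of adipose chow lay farther apart than any 2 groups. These intervals cover counting error only.

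Neither diet nor tissue shifted the share beyond the spread between libraries. The mean was 2.49% over the 4 high fat libraries and 4.03% over the 4 chow libraries, a difference in mean logit of -0.05 (exact permutation p = 0.886, two-sided, 0.886 after Benjamini-Hochberg adjustment over 3 contrasts), with high fat the higher in 2 of 4 pairs. Mesentery averaged 1.39% and adipose 5.14% (difference -0.94, exact permutation p = 0.257, adjusted 0.386), mesentery being the lower in 3 of 4 pairs. The largest of the 3 contrasts was that between runs (B minus A -1.38, exact permutation p = 0.0571, adjusted 0.171), lower in B in 4 of 4 pairs; the smallest p this design allows is 0.0286. Thinned to 1000 UMIs per barcode, which leaves out shallower ones, shares ran from 0.747% (mesentery chow A) to 8.94% (adipose chow A). The diet difference then had the opposite sign (0.05), as it did without adipose chow A (0.58).

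**Figure D1:**
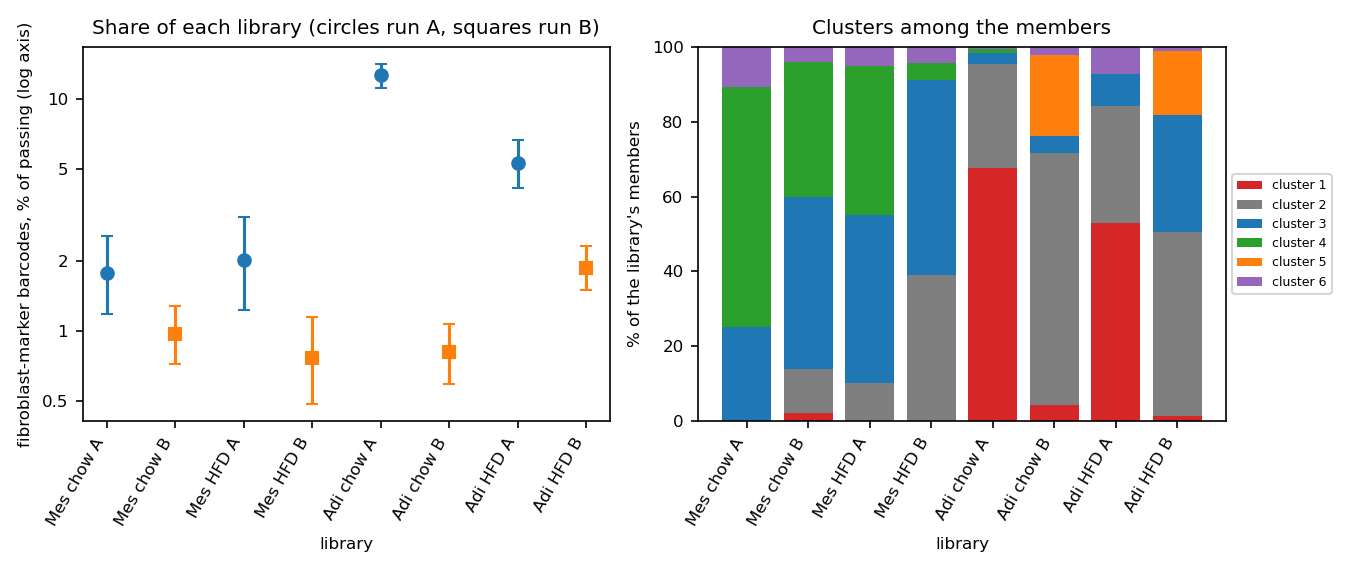
Left, members as a percentage of passing barcodes in each library (log axis; circles run A, squares run B; bars 95% exact binomial intervals); right, the make-up of each library's members by cluster. Mes is mesentery, Adi epididymal adipose and HFD high fat diet. Adipose chow A stands at 12.6%, and clusters 1 and 5 are nearly confined to the adipose libraries, with 227 of their 228 cells there.

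Clustering the 561 members on their own expression gave 6 groups, described here by their leading genes and without a test, since the same genes made them. Cluster 3 (92 barcodes, in all 8 libraries) came nearest to the textbook fibroblast by genes outside the rule. Fn1 (fibronectin), Postn (periostin), Pcolce2, Clec3b, Fbln2 and Col3a1 were among its leading genes. The 12 fibroblast genes outside the rule summed to 38949 CPM in it, the most of the 6 clusters, and Acta2 was found in 9.78% of its barcodes. Dpt and Lum also led cluster 3, with Lum in 97.8% of its barcodes and Pdgfra in 82.6%. These 3 genes helped to choose the members, so their values are a description only. The median depth of cluster 3 was 7925 UMIs. Cluster 2 (178 barcodes) was shallow, with a median of 1233.5 UMIs. Its first genes by fold included the adipocyte genes Cfd, Car3 and Retn, but these lay in 2.2%, 0.6% and 0.6% of its barcodes. More widely spread were Chrdl1 (a BMP antagonist, 46.1%), Fabp4 (28.7%), Fmod (25.3%) and Epyc (10.7%), the last of which are proteoglycans of the fibril surface, and Lum was found in 61.8%.

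Clusters 1 and 5 carried contractile genes and divided largely by run. Cluster 1 had 204 barcodes, 163 of them from adipose chow A and 37 from adipose high fat A. It was led by Cxcl10, Rgs2, Btg2, Ptgs2 and Ptn, with Acta2 in 95.1% of barcodes, Myh11 in 76.5% and Des (desmin) in 85.3%. Cluster 5 (24 barcodes, all from adipose in run B) was led by Lbh, Tcf21, Ednra (an endothelin receptor) and Myh11, with Acta2 and Myh11 in every barcode. Yet Pdgfra was found in 74.5% of cluster 1 and in every barcode of cluster 5 and of 268 members with Acta2, 191 also had Pdgfra. Pdgfra helped to choose the members, so this overlap is a description of the chosen barcodes only. Among all barcodes with Cdh5 or Cldn5, Pdgfra was found in 0.0786 to 4.98%. Mural markers summed to 9828 and 11810 CPM in clusters 1 and 5 against 327 CPM in cluster 3. The 12 fibroblast genes outside the rule went the other way, with 4756, 3918 and 38949 CPM. For these 228 barcodes the data go against a plain fibroblast label, and they are named by their cluster numbers only.

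The smaller clusters were of other kinds. Cluster 4 (48 barcodes, 45 of them from mesentery) was led by Sfrp5 (a secreted Wnt antagonist), Itgb4 (the integrin of hemidesmosomes), Lypd2, Cldn1 (a tight junction protein), Slc2a1 (the glucose transporter GLUT1), Thbs4 and Klf5. Sfrp5 was found in 91.7% of its barcodes, Slc2a1 in 79.2% and Pdgfra in 12.5%. No fixed list matched it, and it stays unnamed. Cluster 6 (15 barcodes, in all 8 libraries) had the mesothelial markers Msln and Upk3b in every barcode and Krt19 in 86.7%, and is called mesothelial-like; Pdgfra was in none of its 15 barcodes. The clusters were spread unevenly: cluster 4 made up 64.3% of members in mesentery chow A and 36% in mesentery chow B, but 40% and 4.35% on high fat diet.

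The first question asked of the members was what the high fat diet changed. In the fit of 4 group means, no gene of 5010 passed an adjusted p of 0.05 for diet in mesentery, in adipose or averaged over tissues, so the background percentage called was 0 in each (edgeR quasi-likelihood test, Benjamini-Hochberg adjustment). At an unadjusted p under 0.05 there were 105, 121 and 168 genes, and DESeq2 called 0, 2 and 2. The runs pair the libraries, and with run as a block 0 genes were called in mesentery, 12 in adipose (0.24% of those tested; 0.2% higher and 0.0399% lower on high fat diet) and 17 averaged over tissues (0.339%), of which 14 were higher (0.279%) and 3 lower (0.0599%). One of the 14, Col1a1, helped to choose the members, and nothing is read from it. The diet changes below are those of the blocked fit. No gene was called for a diet effect that differed between the tissues (0 of 5010 in either fit, 69 and 227 at an unadjusted p under 0.05, DESeq2 0). With 2 pools per group this does not show that none differed, and some other settings, given in the closing section, did call genes.

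Several matrix genes were among those that rose on high fat diet. Col3a1, the collagen III chain of elastic tissues, stood at 999 CPM in mesentery chow A, 2898 in mesentery chow B, 610 in adipose chow A and 2759 in adipose chow B (values scaled by TMM, edgeR's library size correction). On high fat diet it stood at 2313 and 11520 CPM in mesentery A and B and at 2541 and 11711 CPM in adipose A and B. Within each tissue and run the high fat library was the higher, by a log2 change of 1.84 ± 0.19 (SE; 3.58-fold) over 4 of 4 pairs (edgeR with run as a block, adjusted p = 0.000374). Without the block the change was 1.95 and was not called (edgeR, adjusted p = 1.0); the libraries of run B were the higher in every group.

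Other components of the fibril and of its assembly rose beside it. Sparc, a collagen-binding protein that helps fibrils form, went from 1771 to 5169 CPM in mesentery A, from 1762 to 5862 in mesentery B, from 1801 to 3403 in adipose A and from 2434 to 7383 in adipose B. All 4 high fat libraries thus stood above all 4 chow libraries (log2 1.47 ± 0.21, edgeR with run as a block, adjusted p = 0.00572). Col5a2 and Col5a3, chains of the collagen V that sets fibril diameter, rose by 1.52 ± 0.26 and 2.18 ± 0.31 (edgeR blocked fit, adjusted p = 0.0167 and 0.00572). Fbln2 (fibulin-2, a linker of elastic fibres and basement membranes) rose by 1.53 ± 0.22 (edgeR blocked fit, adjusted p = 0.00663). Each of the 3 was higher in 4 of 4 pairs. Col3a1, Sparc and Col5a3 were called in all 11 blocked fits that were run, and Fbln2 in 10 of 11. Fbln2 was lost when members with a UMI of a marker of another cell type were left out (log2 1.28, edgeR adjusted p = 0.0999). Col5a2 was called in 8 of 11 and lost without mesentery chow B, adipose chow B or mesentery high fat B (edgeR adjusted p = 0.131, 0.0634 and 0.0571).

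**Figure D2:**
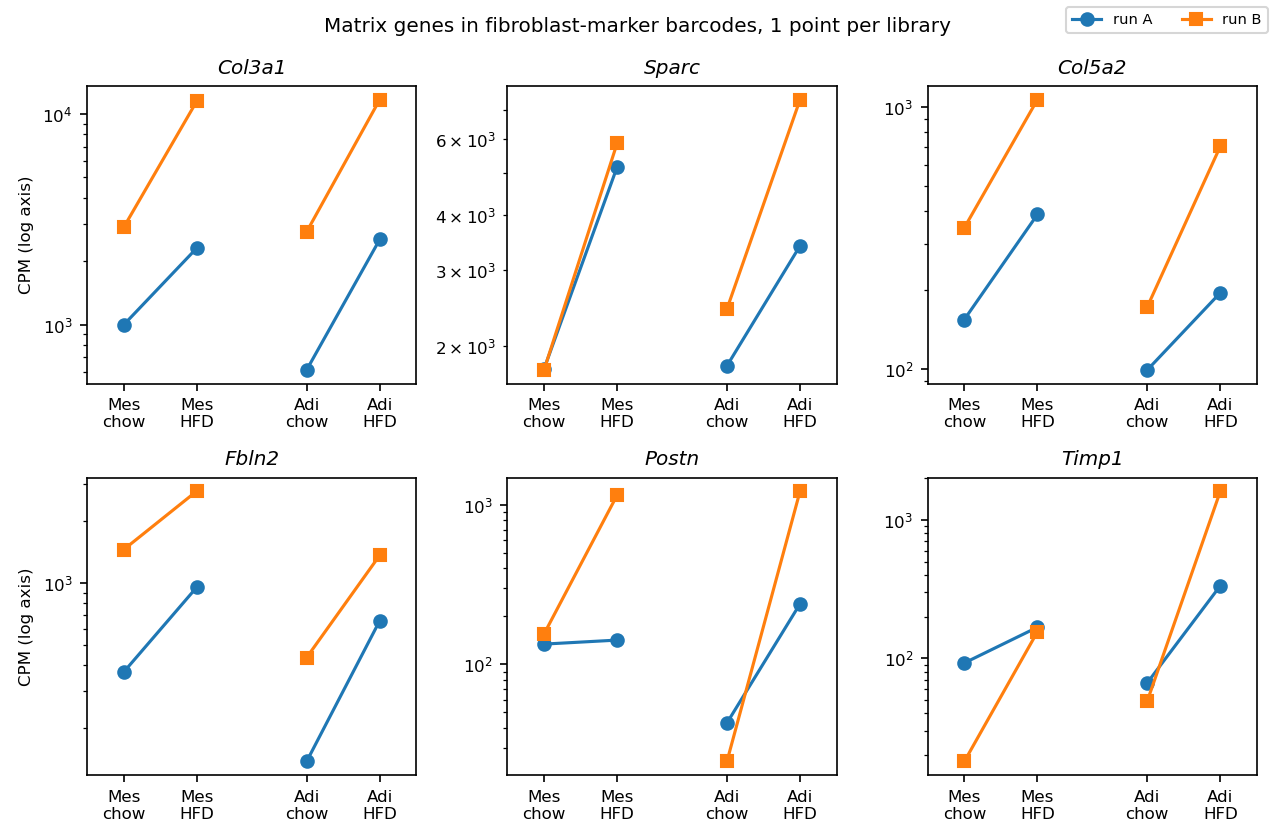
CPM (TMM-scaled, log axis) of 6 matrix genes in summed member counts, 1 point per library, with a line from the chow to the high fat library of the same tissue and run (Mes, mesentery; Adi, adipose; HFD, high fat diet; circles run A, squares run B). Every line rises for Col3a1, Sparc, Col5a2, Fbln2, Postn and Timp1, while the runs differ in level, as for Col3a1 at 2313 and 11520 CPM in mesentery high fat.

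Postn, a matrix protein of wound healing and TGF-beta response, was at 134 and 155 CPM in mesentery chow (runs A and B) and at 142 and 1153 CPM in mesentery high fat. In adipose it was at 42.9 and 24.6 CPM on chow and at 240 and 1222 CPM on high fat diet. It rose by 2.82 ± 0.46 (edgeR blocked fit, adjusted p = 0.0123; 4 of 4 pairs), although the pair of mesentery libraries in run A differed little. Timp1, an inhibitor of matrix metalloproteinases, was at 92.7 and 18.0 CPM in mesentery chow, 168 and 156 CPM in mesentery high fat, 66.6 and 49.2 CPM in adipose chow, and 336 and 1620 CPM in adipose high fat. It rose by 2.87 ± 0.54 (edgeR blocked fit, adjusted p = 0.0313; 4 of 4 pairs). DESeq2 without a block called these 2 genes (log2 3.29 and 2.88, adjusted p = 0.00717 and 0.0237). Without mesentery chow B the blocked fit no longer called Postn (edgeR adjusted p = 0.114) or Timp1 (edgeR adjusted p = 0.224), and without mesentery high fat B it did not call Postn (edgeR adjusted p = 0.0641).

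Also called in the blocked fit were Ctsh (cathepsin H, a lysosomal protease; log2 2.01 ± 0.32), Serpina3n (a protease inhibitor; 1.98 ± 0.36) and Cpxm1 (a carboxypeptidase-like matrix protein; 1.46 ± 0.26), each higher in 4 of 4 pairs (edgeR adjusted p = 0.0123, 0.0256 and 0.0243). Sfrp2, Prss23 and Cxcl2 were also called higher. The 3 genes that fell had other roles. Sult1e1, an oestrogen sulphotransferase, fell by 5.11 ± 0.8 and was lower in 3 of 4 pairs, mesentery run A being at 0 CPM on both diets. Spon1 (spondin-1) fell by 4.0 ± 0.74, and Itgb4, a leading gene of cluster 4, fell by 3.36 ± 0.65, both in 4 of 4 pairs (edgeR blocked fit, adjusted p = 0.0123, 0.0313 and 0.041 for the 3 genes). These calls were less stable than those of Col3a1: without mesentery chow B all 3 falls were lost (edgeR adjusted p = 1.0, 0.278 and 0.131), as were Ctsh (0.137), Serpina3n (0.278), Cpxm1 (0.205), Sfrp2 (0.131) and Prss23 (0.137), and that fit made 7 calls in all. Without adipose chow A, Cpxm1, Sfrp2, Prss23 and Spon1 were lost at adjusted p of 0.0913 to 0.104, Itgb4 at 0.5 and Cxcl2, whose change then had the opposite sign (-0.52), at 1.0. Without mesentery high fat B, Sult1e1 (0.572), Spon1 (0.189), Serpina3n (0.736) and Cpxm1 (0.189) were among those lost. The summed counts cannot tell a change in level per cell from a change in which cells were caught: cluster 3 made up more of the members on high fat diet in 4 of 4 pairs (25 and 45% in mesentery A, 46 and 52.2% in mesentery B, 2.9 and 8.57% in adipose A, 4.35 and 31.3% in adipose B).

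Within clusters 2 and 3 combined, which leaves out the contractile, Sfrp5-led and mesothelial-like barcodes, Col3a1 was higher on high fat diet in 4 of 4 pairs. Col3a1 there was at 853 and 2544 CPM on chow and high fat diet in mesentery A, 3574 and 11583 in mesentery B, 1268 and 6201 in adipose A, and 3999 and 12921 in adipose B (CPM without TMM scaling). Sparc, Postn, Timp1, Col5a2 and Col5a3 were also higher on high fat diet in 4 of 4 pairs, Fbln2 in 3 of 4, Fn1 in 2 of 4. In cluster 3 alone, 3 pairs had at least 5 barcodes on both sides, and Col3a1 was higher on high fat diet in each, at 853 and 2521 CPM in mesentery A, 3540 and 8478 CPM in adipose A, and 3711 and 11731 CPM in mesentery B. Fn1 was lower there in 3 of 3 pairs. The combined set changed in make-up with diet: in adipose B cluster 3 gave 2 of its 33 barcodes on chow and 26 of 67 on high fat diet, too few on chow for a pair of its own. In cluster 2 alone, Col3a1 in adipose B was at 3061 CPM on chow against 3421 CPM for the high fat library, with Sparc at 2679 and 3090 CPM, smaller differences than in the combined set. Col3a1 in cluster 2 was at 853 and 3002 CPM in adipose A and at 452 and 7812 in mesentery B. In the contractile clusters 1 and 5 these genes did not move together. Col3a1 was lower there on high fat diet, at 248 on chow and 218 CPM on high fat diet in adipose A and at 661 and 480 in adipose B. Fbln2, at low levels, was at 50.5 and 13.2 and at 14.4 and 0, and Col5a3 was also lower in both runs. Sparc was higher on high fat diet, at 933 and 1104 CPM in adipose A and at 1092 and 1262 in adipose B. Postn, Timp1 and Col5a2 differed in direction between the runs. The clusters were drawn with these genes, so the values are a description. In endothelial reference barcodes of the same libraries Col3a1 was at 2.65 to 32.5 CPM.

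**Figure D3:**
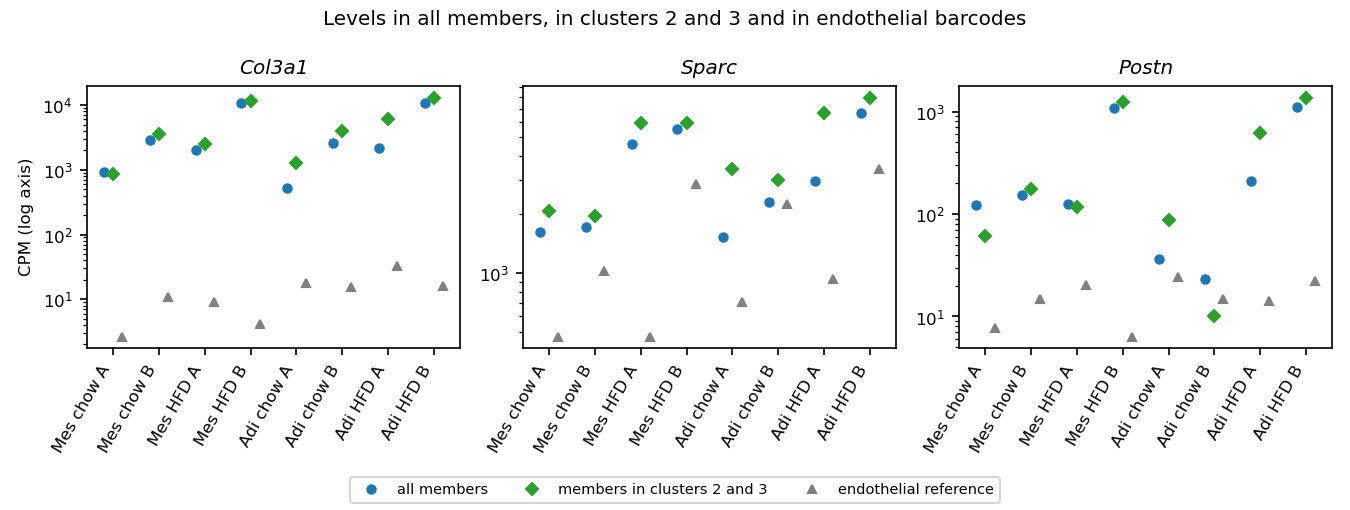
CPM without TMM scaling (log axis) of Col3a1, Sparc and Postn by library, in all members (circles), in members of clusters 2 and 3 (diamonds) and in endothelial reference barcodes (triangles). Mes is mesentery, Adi adipose, HFD high fat diet. Col3a1 reached 11583 and 12921 CPM in clusters 2 and 3 of the high fat libraries of run B, while endothelial barcodes stayed at or below 32.5 CPM; Sparc was also abundant in endothelial barcodes.

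As a group, the 21 genes for collagen fibrils and elastic fibres had a median log2 change of 0.88, against -0.02 over all 5010 genes tested. Of these, 4 rose (Col3a1, Fbln2, Col5a2 and Sparc), 0 fell and 17 were not called, where 0.279% of all genes tested were called higher and 0.0599% lower. Of the 21, 13 were higher on high fat diet in all 4 pairs, against 9.16% of all genes tested. The values of those not called ran from -0.01 ± 0.33 for Fmod (fibromodulin) to 1.87 ± 0.45 for Lox, the lysyl oxidase that cross-links collagen (edgeR blocked fit, adjusted p = 0.0892). Of 17 genes for matrix breakdown and its inhibitors, 1 rose (Timp1) and 16 were not called, among them Mmp2 (gelatinase A) at 1.25 ± 0.28 (edgeR blocked fit, adjusted p = 0.0632); 9 were higher in all 4 pairs, and the median was 0.73. The myofibroblast and TGF-beta list had a median of 1.40 with 2 of 11 tested genes called, Timp1 and Postn.

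**Figure D4:**
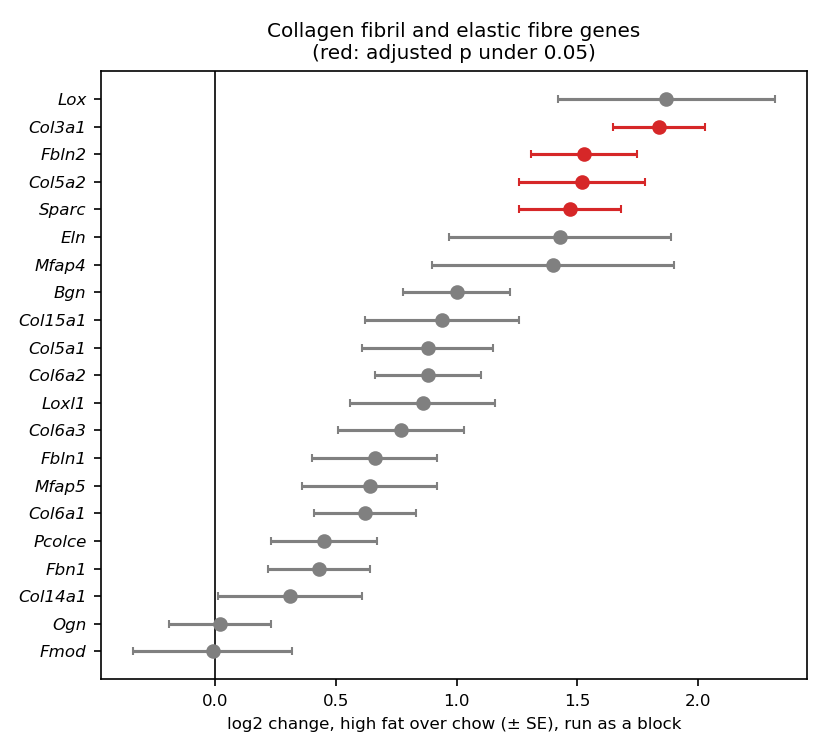
Log2 change on high fat diet (points, with SE as bars; run as a block, averaged over tissues) of the 21 genes for collagen fibrils and elastic fibres in members. The 4 genes in red passed an adjusted p of 0.05, and the points run from -0.01 for Fmod to 1.87 for Lox.

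The progenitor and preadipocyte lists held no gene called for diet. Of 12 progenitor genes, 9 were tested and none was called for diet; their median change was -0.17. Pi16 changed by -0.38 ± 0.45, Cd55 by -0.24 ± 0.37, Dpp4 by 0.77 ± 0.45 and Mfap5, a microfibril protein, by 0.64 ± 0.28 (edgeR blocked fit, adjusted p = 0.89, 0.921, 0.695 and 0.512). Of 12 preadipocyte genes 11 were tested and none was called, with a median of 0.39. Fabp4, a fatty acid carrier, was higher in 4 of 4 pairs at 1.34 ± 0.50, and Lpl (lipoprotein lipase) changed by 0.84 ± 0.31, Icam1 by 0.12 ± 0.28, Col15a1 by 0.94 ± 0.32 and Cxcl14 by -2.89 ± 0.86 (edgeR blocked fit, adjusted p = 0.381, 0.364, 0.955, 0.308 and 0.238). Pparg, the master regulator of fat cell formation, was too low to test, at 0 to 26.1 CPM in members of the 8 libraries.

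No gene of the fixed complement and chemokine list (16 tested; Cxcl2 is not on it) or of the insulin-like growth factor list (8 tested) was called for diet averaged over the tissues. C3, the central complement component, was higher in 4 of 4 pairs (0.96 ± 0.29), as was Igfbp4, which binds insulin-like growth factors (0.78 ± 0.24). Igf1 changed by -0.29 ± 0.32, Cxcl12 by 0.44 ± 0.37, Ccl11 (eotaxin) by 0.25 ± 0.50 and Mmp3 by 2.14 ± 0.70. Adjusted p values of these 6 genes in edgeR's blocked fit ran from 0.228 to 0.939. Vegfa, a ligand of endothelial cells, was lower on high fat diet in 4 of 4 pairs at 9.07 to 38.8 CPM against 23.6 to 68.3 CPM (-1.33 ± 0.54, edgeR blocked fit, adjusted p = 0.442). Of the 15 tested ligands for endothelial cells none was called. Fn1 changed by 0.52 ± 0.25, Thbs1 by 1.03 ± 0.40, Wt1 by 1.45 ± 0.53, Hoxc8 by 0.24 ± 0.35 and Tcf21, a transcription factor of stromal progenitors, by -0.66 ± 0.29 with lower values in 4 of 4 pairs (edgeR blocked fit, adjusted p = 0.57, 0.421, 0.354, 0.913 and 0.516).

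In adipose alone the 12 genes called with the block were Col3a1, Fbln2, Col5a3, Postn, Timp1, Sfrp2, C4b, Cxcl2, Fgf1 and Ifi205 (higher) and Sult1e1 and Col4a3 (lower). Over all members Fgf1 had 114 UMIs in the mesothelial-like cluster 6 and at most 21 in any other cluster. Cluster 6 held 1 barcode on chow and 5 on high fat diet in adipose A, and 1 on each diet in adipose B. Its part in the Fgf1 call was not tested. C4b, a complement component, went from 64.4 to 259 CPM in run A and from 92.2 to 484 CPM in run B (log2 2.22 ± 0.37, edgeR blocked fit, adjusted p = 0.025). Sfrp2, a secreted modulator of Wnt signalling, had 2 UMIs over the adipose chow libraries and 55 over the adipose high fat libraries, a ratio of 26.9 (95% counting interval 7.11 to 228). Cxcl2, a chemokine for neutrophils, was at 2.15 and 150 CPM on chow and high fat diet in run A and at 0 in both libraries of run B, so its call rests on 1 run. Leaving out members with markers of other cell types kept 6 of these 12 calls.

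In mesentery alone no gene was called with or without the block, at background percentages of 0. The 4 genes with the smallest p in the blocked fit were Col3a1 (1.61 ± 0.27), Sparc (1.63 ± 0.29), Ccn2 (3.36 ± 0.63) and Slc2a1 (-2.55 ± 0.49), all at an edgeR adjusted p of 0.124. Ccn2, a matricellular target of TGF-beta and YAP signalling, was at 10.3 and 21.6 CPM in the chow libraries and at 220 and 165 CPM in the high fat libraries (7 and 51 UMIs; ratio 9.66, 95% counting interval 4.37 to 25.2). In adipose it was at 51.5 and 141 CPM on chow and 68.1 and 52.2 CPM on high fat diet. Postn changed by 1.95 ± 0.64 and Timp1 by 1.90 ± 0.84 in mesentery (edgeR blocked fit, adjusted p = 0.465 and 0.826). Leaving out members with markers of other cell types, with the block, gave 5 calls in mesentery, among them Col3a1 at 1.89 (edgeR adjusted p = 0.0236) and Sparc at 1.71 (edgeR adjusted p = 0.0204).

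The second question was how members differed between the tissues. Averaged over diets, 78 of 5010 genes (1.56%) were called without a block, 18 higher in mesentery (0.359%) and 60 higher in adipose (1.2%), and 428 (8.54%) with run as a block, 191 higher (3.81%) and 237 lower (4.73%) in mesentery; all 78 were among the 428. On chow 3 genes were called (0.0599%; Acta2, Myh11 and Mme, all higher in adipose) and 335 with the block (6.69%; 2.79% with the higher level in mesentery, 3.89% with the lower). The high fat libraries gave 0 and 76 (0 and 1.52%, the latter 0.439% higher and 1.08% lower; 235 at an unadjusted p under 0.05 without the block, DESeq2 23). The member sets were not alike in make-up: 227 of the 228 barcodes of clusters 1 and 5 came from adipose and 45 of the 48 of cluster 4 from mesentery. The part of this make-up in the tissue differences was not tested, and without members carrying markers of other cell types, which takes out every barcode with Myh11, the unblocked fit called 0 genes (the blocked fit 101).

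Contractile genes were the clearest mark of adipose members. Acta2 stood at 6911, 3011, 4215 and 1777 CPM in adipose chow A and B and adipose high fat A and B, and at 0, 10.8, 0 and 14.6 CPM in the mesentery libraries in the same order. It had 5387 UMIs in adipose and 6 in mesentery, a ratio of 465 (95% counting interval 214 to 1270; edgeR without block, adjusted p = 0.00659). Myh11 had 797 and 2 UMIs, a ratio of 206 (57.0 to 1710; edgeR adjusted p = 0.00617). Cnn1 (calponin) had 133 UMIs in adipose and 0 in mesentery, at least 23.0-fold higher against a floor of 3 UMIs over the mesentery libraries (edgeR adjusted p = 0.0322), and Tnnt1 (a troponin) 205 and 0, at least 35.4-fold higher (edgeR adjusted p = 0.015). Each was higher in adipose in 4 of 4 pairs. Des differed by -4.15 ± 0.59 (mesentery minus adipose; edgeR adjusted p = 0.0185).

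Adipose members also had more of several genes outside the contractile programme. Lipg (endothelial lipase), Acsbg1 (an acyl-CoA synthetase), Ajap1, Gpld1 and Apoc1 had 128 to 253 UMIs in adipose and 0 in mesentery, at least 22.1- to 43.7-fold higher (edgeR adjusted p = 0.0154 to 0.0308). Lamc3, a laminin chain, had 475 and 3 UMIs, a ratio of 82.0 (27.9 to 399; edgeR adjusted p = 0.015). Cxcl14, a chemokine of preadipocytes, was at 99.8 to 197 CPM in adipose and 0 to 36.0 CPM in mesentery (edgeR adjusted p = 0.0162). Ptn (pleiotrophin) was at 638 to 2703 CPM in adipose and 0 to 216 CPM in mesentery (edgeR adjusted p = 0.0322). Each was lower in mesentery in all 4 pairs, as were 14.3% of all genes tested, and the libraries of the tissues did not overlap. In clusters 2 and 3 alone Acta2 was at 29.1 to 1363 CPM in adipose and at most 14.3 CPM in mesentery. Ptn overlapped between the tissues there, at 82.0 to 396 CPM in adipose and 0 to 271 CPM in mesentery.

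**Figure D5:**
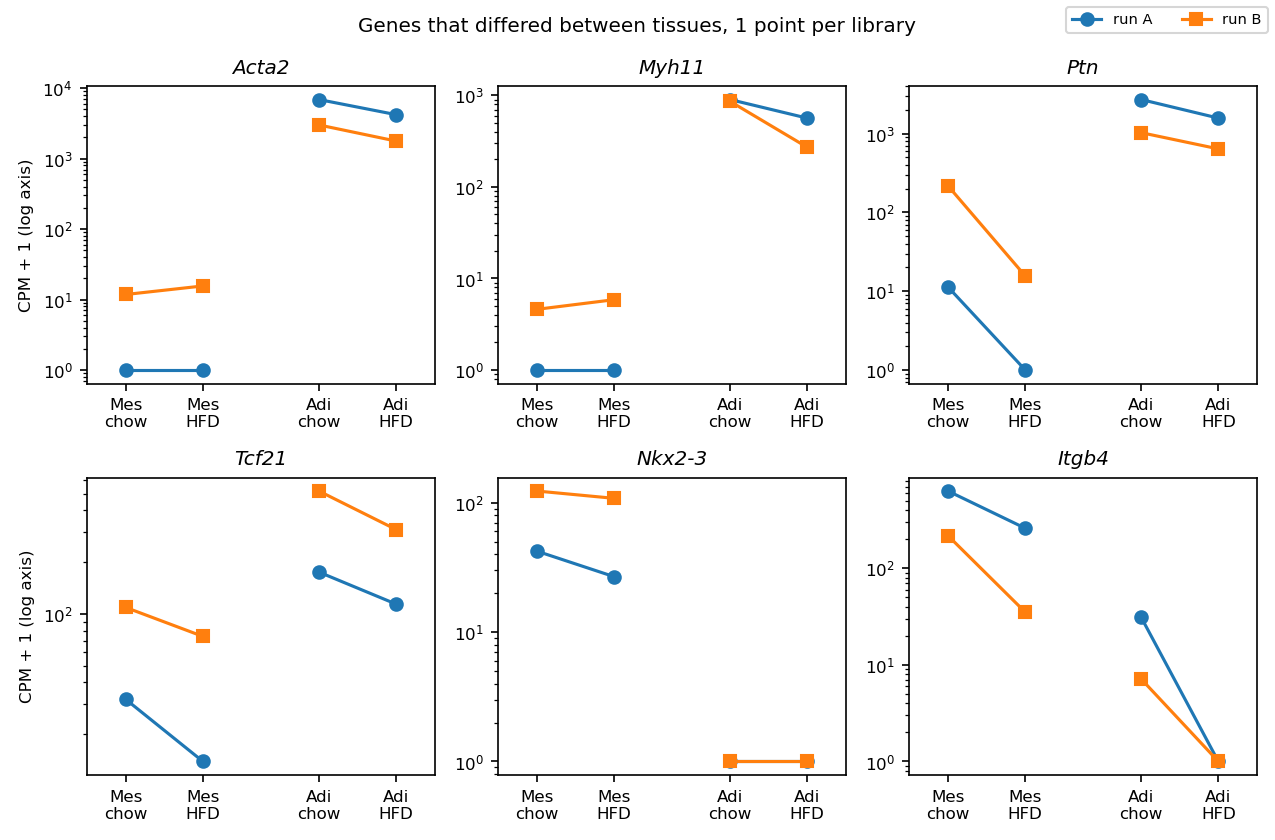
CPM + 1 (TMM-scaled, log axis; 1 marks a library with no UMI) of 6 genes in summed member counts, 1 point per library, with a line from the chow to the high fat library of a tissue and run (Mes, mesentery; Adi, adipose; HFD, high fat diet; circles run A, squares run B). Acta2, Myh11, Ptn and Tcf21 lie higher in all 4 adipose libraries, and Nkx2-3 and Itgb4 in all 4 mesentery libraries, with Nkx2-3 at 0 in adipose.

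Mesentery members were marked by Nkx2-3, a homeobox factor of gut and spleen mesenchyme. It was at 41.2, 122, 25.8 and 107 CPM in mesentery chow A and B and mesentery high fat A and B, with 62 UMIs there and 0 in the 4 adipose libraries (at least 39.9-fold higher; edgeR without block, adjusted p = 0.0343). Endothelial reference barcodes showed the same split, with 41.9 to 199 CPM in mesentery and at most 1.05 CPM in adipose. Meox2, another homeobox factor, had 72 and 9 UMIs (ratio 15.4, 7.70 to 35.1), and Stxbp6, which binds SNARE proteins, 79 and 7 (ratio 21.8, 10.1 to 55.9; edgeR adjusted p = 0.0322 and 0.015). Meox2 was also a leading gene of cluster 4, at 416.9 CPM against 12.5 CPM in other members. The genes given next led cluster 4 as well. Itgb4 had 148 and 15 UMIs (ratio 19.0, 11.2 to 34.9), Cldn1 105 and 6 (33.8, 15 to 94.1), Thbs4 89 and 1 (172, 30.0 to 6860), Lypd2 152 and 14 (21.0, 12.1 to 39.2) and Clec1a 52 and 3 (33.5, 10.8 to 167), at edgeR adjusted p of 0.0396, 0.0161, 0.0475, 0.04 and 0.0412. Lrrn4, a mesothelial marker, and Pkhd1l1 were the remaining ones named by size (edgeR adjusted p = 0.0475 and 0.0458). Without mesentery chow B the unblocked fit called 0 genes between tissues, and without adipose chow A 17; with run as a block 241 were called without adipose chow A.

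Transcription factors that mark body position or stromal lineage split between the tissues in the blocked fit: of 18 listed, 11 were tested, 5 were higher in mesentery (Nkx2-3, Meox2, Ebf2, Wt1 and Ebf1), 4 were lower (Tcf21, Hoxa5, Twist1 and Prrx1) and 2 were not called, one of them Hoxc8 (-1.14 ± 0.35, edgeR adjusted p = 0.056). Over all genes this fit called 3.81% higher and 4.73% lower. Tcf21 was at 113 to 516 CPM in adipose members and 12.9 to 108 CPM in mesentery members, with no overlap (-2.28 ± 0.29, edgeR blocked fit, adjusted p = 0.000138). Within clusters 2 and 3 combined the tissues did overlap for Tcf21, at 26.0 to 293 CPM in adipose and 19.4 to 143 CPM in mesentery. Wt1, which marks visceral mesothelium and its stroma, was higher in mesentery by 1.79 ± 0.53 (edgeR blocked fit, adjusted p = 0.0498). By cluster, Wt1 was at 264.5 CPM in the mesothelial-like cluster 6 and at 43.5 CPM in cluster 3. Meox2 and Ebf2 were highest in cluster 4, at 416.9 and 230.8 CPM, against 25.2 and 114.6 CPM in cluster 3. Nkx2-3 and Ebf1 were highest in cluster 3, at 64.2 and 913.4 CPM. The part of cluster make-up in these differences was not tested. In the unblocked fit only Nkx2-3 and Meox2 of the 11 were called.

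Secreted factors differed in both directions once run was a block. Of 16 complement and chemokine genes tested, 5 were higher in mesentery and 1, Cxcl14, in adipose, beside 3.81% and 4.73% of all genes tested. C3 was at 2657 to 3269 CPM in mesentery and 210 to 2225 CPM in adipose (1.65 ± 0.29, edgeR blocked fit, adjusted p = 0.00168), and Ccl11 at 478 to 978 against 18.1 to 501 CPM (2.41 ± 0.50, edgeR blocked fit, adjusted p = 0.00549), the latter with an overlap of groups. Where members with markers of other cell types were left out, the C3 difference was 0.04 (edgeR blocked fit, adjusted p = 0.98). Igf1, the growth factor, was at 534 to 1031 CPM in adipose and 51.5 to 284 CPM in mesentery (-1.99 ± 0.33, edgeR blocked fit, adjusted p = 0.00112), while its binding protein Igfbp4 was higher in mesentery (1.22 ± 0.24, edgeR blocked fit, adjusted p = 0.004). Of 15 ligands for endothelial cells, Fgf1, Angptl2 and Thbs1 were higher in mesentery and Hgf in adipose. Fgf1 was at 1040 CPM in the mesothelial-like cluster 6 and at 6.9 to 104 CPM in the other clusters.

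Among the state genes, Dpp4 (1.82 ± 0.45), Mfap5 (1.14 ± 0.28) and Fn1 (1.23 ± 0.25) were higher in mesentery, and Col15a1 (-1.45 ± 0.32) and Fabp4 (-1.67 ± 0.50) in adipose (edgeR blocked fit, adjusted p = 0.0191, 0.0186, 0.00405, 0.00866 and 0.0489). In clusters 2 and 3 combined the tissues overlapped for Col15a1, at 128 to 621 CPM in mesentery and 119 to 632 CPM in adipose. In clusters 1 and 5 of the adipose libraries it was at 344 to 747 CPM. Dpp4 had 47 UMIs in the mesothelial-like cluster 6 (429 CPM) and 35 in cluster 3 (40.1 CPM). The part of cluster make-up in these differences was not tested. Pi16 (0.68 ± 0.48), Cd55 (1.17 ± 0.35), Icam1 (-0.94 ± 0.28), Lpl (-0.22 ± 0.31), Cxcl12 (-0.99 ± 0.37), Timp1 (-1.56 ± 0.52), Mmp3 (0.23 ± 0.75), Postn (0.69 ± 0.45) and Col3a1 (0.16 ± 0.19) were not called between tissues, and Thbs1 was (1.33 ± 0.39, edgeR blocked fit, adjusted p = 0.0466). None of these genes was called without the block. Pi16 was found in 67 of 561 members, and 23 of these also had Col15a1, while Mfap5 was found in 237. Of the 21 fibril and elastic fibre genes 4 were higher in mesentery and 2 in adipose (3.81% and 4.73% of all genes), and the list's median was 0.16, against -0.04 over all genes.

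Diet and tissue effects of the members were last set against those of endothelial reference barcodes from the same libraries, with limma on the within-library difference of log2 CPM over 4933 genes. For diet averaged over tissues 0 genes differed (0%) without a block and 10 (0.203%) with it, among them Fbln2 (1.53 in members, 0.34 in endothelial barcodes; difference 1.19 ± 0.18, limma adjusted p = 0.04), Mgp (0.73 and -1.30; 2.03 ± 0.19, limma adjusted p = 0.00402) and Bgn (1.02 and -0.77; 1.78 ± 0.21, limma adjusted p = 0.00894). The Col3a1 difference was 1.51 ± 0.52 (limma adjusted p = 0.425), so a difference from its change in endothelial barcodes was not shown. For diet in mesentery 1 gene, Ccn2, differed without a block (0.0203%) and 6 with it (0.122%). For tissue 12 genes differed without a block (0.243%) and 157 with it (3.18%).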

How the data were processed

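The deposited matrices of the 8 libraries hold raw UMI counts for each gene in each barcode, without normalization; per the file headers run A carries software version 3.0.2 and run B 5.0.0. The submitters' processing notes name mm10 and Seurat 4.3.0. The 30406 gene identifiers common to both feature lists were used. Total counts per library were 3461360 to 36779289, and deposited barcodes had at least 414 UMIs in every library. No doublet caller was run; the rule's 4 excluding genes remove some doublets.

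Members were found by the stated rule. Their counts were summed per library and tested with edgeR 4.0.16 (quasi-likelihood, TMM, filterByExpr, 1 mean per group, Benjamini-Hochberg over 5010 genes, calls at 0.05; R 4.3.3). Alternatives were DESeq2 1.42.0, limma-voom (limma 3.58.1), no filter, run as a block, other member definitions, and each library left out; the closing section gives their effect. The sample titles carry the letter A or B, taken here as repeats of one experiment, and the study's methods give no run block. Differences between A and B within a group correlated at 0.46 to 0.62 in all 6 pairs of groups, so run was used to pair the libraries. CPM of genes are TMM-scaled; CPM of marker lists, clusters and endothelial barcodes are not. Genes are named by identifier-matched symbols.

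Clusters came from scanpy 1.11.5 and leidenalg 0.10.2 (1500 variable genes without mitochondrial, ribosomal, Gm and immediate early genes, 12 components, 15 neighbours, resolution 0.4, scaled within run). Shares were tested by exact permutation over libraries. The edgeR fit without a block was tested on simulated data, and the blocked and limma fits were not.

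Named genes were the 10 largest rises and 10 largest falls among called genes that kept their direction in both runs and had at least 20 UMIs (or the 4 smallest p where under 2 were called), plus 25 fixed genes; the rule was applied to the blocked fit too. Members and lists were chosen with earlier results of these data known. P-values measure the spread between pools of mice.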

Additional observations from a re-analysis of the deposited data

Results flagged for a closer look

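In 13 cases a test found a diet or tissue effect in fibroblast-marker barcodes that differed from the effect in endothelial barcodes of the same libraries (limma on within-library differences of log2 CPM, without a block). The high fat diet effect on Ccn2 in mesentery was larger in members by 4.11 ± 0.42 (3.09 in members, -1.02 in endothelial barcodes; limma adjusted p = 0.0315). Between tissues (mesentery minus adipose), the difference from endothelial barcodes was positive for Itgb4 (3.31 ± 0.48), Stxbp6 (2.74 ± 0.33) and Gja1 (2.67 ± 0.40). It was negative for the contractile and cytoskeletal genes Mylk (-2.56 ± 0.30), Ppp1r14a (-3.65 ± 0.44) and Fblim1 (-3.25 ± 0.47), and for Rgs2 (-3.09 ± 0.44), Gata2 (-3.23 ± 0.37), Rbbp7 (-2.46 ± 0.33) and Atp1b3 (-1.94 ± 0.28). In Ltbp2 (-6.75 ± 0.92; -2.69 in members, 4.06 in endothelial barcodes) and in Gata2 the members' value is set by the prior count, since mesentery members had 0 UMIs of either: Ltbp2 had 61 UMIs in adipose (at least 10.5-fold higher) and Gata2 91 (at least 15.7-fold higher), so neither size is exact. In Cyp1b1 (-4.96 ± 0.74) the tissue effect was -0.23 in members and 4.73 in endothelial barcodes. Limma adjusted p values of the 12 tissue differences ran from 0.031 to 0.0492. Clusters 1 and 5, which carry contractile genes, came from adipose in 227 of 228 barcodes, and their part in these differences was not tested. Leaving out any 1 library gave 0 to 4 calls for tissue in place of 12, and 0 for diet in mesentery in place of 1; with run as a block 157 and 6 genes were called.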

How the results depend on the processing

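The sign of the diet difference in share turned with at least 4 markers (0.32), with thinning (0.05), without adipose chow A (0.58) and without mesentery high fat B (0.27), and ran from -0.38 to 0.58 over left-out libraries; tissue ran from -1.4 to -0.45 and run from -1.66 to -0.97. Counts of called genes follow in the order diet in mesentery, in adipose and averaged, tissue on chow, on high fat diet and averaged, where the edgeR fit without a block gave 0, 0, 0, 3, 0 and 78. DESeq2 gave 0, 2, 2, 67, 23 and 170, limma-voom 0, 0, 0, 0, 0 and 1, and no filter 10, 21, 29, 340, 99 and 468 (interaction 2). On chow, tissue gave 0 with at least 4 markers, which drops mesentery chow A, and 5 with a 20% mitochondrial limit. Without members with markers of other cell types all 6 counts were 0. Left-out libraries gave 0 for each diet comparison, the interaction and tissue on high fat diet, 0 to 8 for tissue on chow and 0 to 90 for tissue averaged.

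The run as a replicate block, which pairs the libraries, gave 0, 12, 17, 335, 76 and 428, with DESeq2 1, 8, 28, 195, 53 and 305. The block without members with markers of other cell types, an alternative chosen after seeing the data, gave 5, 12, 30, 66, 8 and 101. Left-out libraries with the block gave 1 to 26, 4 to 51, 7 to 60, 118 to 441, 38 to 118 and 241 to 448, and 0 to 6 for the interaction. Against endothelial barcodes the block gave 10 for diet averaged, 6 for diet in mesentery and 157 for tissue averaged, in place of 0, 1 and 12, and left-out libraries without the block gave 0, 0 and 0 to 4. The causes were not tested. Of the 33 gene results followed through every alternative none reversed its sign; Cxcl2, outside them, did so with the block and without adipose chow A (-0.52). Members of a library number 20 to 241, which limits genes with few UMIs.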

Other observations

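Cluster 6, the mesothelial-like barcodes, was present at 1 to 5 barcodes in each of the 8 libraries, in either tissue and on either diet. Its 10 mesothelial markers summed to 7379 CPM, against 43.5 CPM in cluster 3 and 1.89 to 40.9 CPM in endothelial reference barcodes. Dpp4 was found in 66.7% of its barcodes and Clec3b in 66.7%, both more often listed for fibroblast progenitors. Dcn was in every one, but it helped to choose the members and was found in 560 of all 561.

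Igfbp6, a binding protein of insulin-like growth factors, was at 21486 CPM in cluster 4 and at 752 to 5519 CPM in the other 5 clusters, while Igf1 was lowest in cluster 4 (29.8 CPM). Igfbp6 stood at 20089, 13141 and 27139 CPM in cluster 4 of mesentery chow A, mesentery high fat A and mesentery chow B. Summed over all mesentery members, Igfbp6 stood at 11771 (A) and 6974 CPM (B) with chow against 6319 (A) and 2598 CPM (B) with the high fat feed, and cluster 4 was the smaller on high fat diet in both runs.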
